A study of Mus musculus with 6 samples.

Results

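Matricellular proteins are secreted into the extracellular matrix, where they tune how cells attach, migrate and respond to growth factors rather than acting mainly as structural scaffold. The genes examined here were 10 members of 4 families of such proteins, namely the thrombospondins *Thbs1*, *Thbs2*, *Thbs3* and *Thbs4*, the fasciclin-domain genes *Postn* and *Tgfbi*, the SPARC family genes *Sparc* and *Sparcl1*, and the tenascins *Tnc* and *Tnxb*. They were taken by gene symbol from a table of 56980 genes. The rule itself uses no measured value, but the list was drawn up with earlier results of these data known. All 10 members were found, and 8 of them passed the filter on low counts and were tested. The members left out by that filter were *Thbs4* and *Tnxb*.

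RNA-seq was performed on bone marrow mesenchymal stromal cells (BM MSCs) of ovariectomized (OVX) mice, a model of bone loss after estrogen deficiency. The recipients were female, about 8 weeks old when experiments began, and their own gut bacteria were depleted with antibiotics before fecal microbiota transplantation (FMT) over 8 weeks. The 3 samples of the TranspCtrl group came from OVX mice given FMT from sedentary OVX donors. The 3 samples of the TranspExer group came from OVX mice given FMT from treadmill-exercised OVX donors. Ovariectomy, antibiotics and FMT were thus shared by both groups, and the comparison asked what differed in BM MSCs with the exercise of the donor. Marrow flushed from femurs and tibias was cultured for 7 days before the MSCs were collected, and no sort was described. The labels do not say whether the samples were separate animals or pools, so p-values measure only the spread between these samples, which may be technical.

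Thrombospondins bind cell-surface receptors such as CD36 and CD47, integrins, collagens and proteases, and thrombospondin 1 can activate latent TGF-β. Periostin and TGFBI carry fasciclin domains, bind integrins and collagen, and are themselves known TGF-β-induced genes, while SPARC is an abundant collagen-binding protein of bone matrix. Tenascins are large multimeric glycoproteins that modulate cell adhesion, and tenascin C is known from developing and remodelling tissue.

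Total counts ranged from 17647638 to 21319166 per sample, and 15190 genes were tested. The floor of 3 counts corresponded to 0.139 to 0.174 CPM, the count of a gene scaled to a common library size with TMM factors. Over log2 CPM of the tested genes, TranspCtrl replicate 1 lay at distances of 60.2 to 62.8 from the other TranspCtrl samples, which were 37 apart. The TranspExer samples were 42.8 to 43.9 apart, and samples of different groups 82.7 to 110. Markers of stromal cells were detected for 10 of 10 genes, with a summed level of 2607 to 2751 CPM in TranspCtrl and 2229 to 2243 CPM in TranspExer. Macrophage markers were also abundant, at 4138 to 5060 and 4707 to 4873 CPM, so the libraries held RNA of other marrow cells besides stromal cells. In bulk samples, fewer cells of a type and less RNA per cell cannot be told apart.

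Of the 10 members, 8 had a promoter window in the RefSeq table of the GRCm38.p6 build, although the start site of the only *Sparc* window lies 3103 bases from the annotated gene start. The windows of 250 bases before the start site are shown for the 3 members that fell at least 2-fold, *Thbs2*, *Thbs3* and *Postn*, and for *Tnc*, which did not pass the test. They lie at chr17:14694263-14694512 on the minus strand for *Thbs2*, chr3:89214930-89215179 on the plus strand for *Thbs3*, chr3:54360857-54361106 on the plus strand for *Postn* and chr4:64047016-64047265 on the minus strand for *Tnc*. Each is printed 5′ to 3′ on the strand of the gene, and capitals mark matches to the searched motifs on either strand.
Thbs2: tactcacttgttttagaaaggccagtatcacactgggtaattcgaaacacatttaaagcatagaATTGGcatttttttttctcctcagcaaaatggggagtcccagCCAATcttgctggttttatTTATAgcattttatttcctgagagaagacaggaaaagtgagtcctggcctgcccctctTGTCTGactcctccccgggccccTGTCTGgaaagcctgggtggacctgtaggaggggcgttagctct
Thbs3: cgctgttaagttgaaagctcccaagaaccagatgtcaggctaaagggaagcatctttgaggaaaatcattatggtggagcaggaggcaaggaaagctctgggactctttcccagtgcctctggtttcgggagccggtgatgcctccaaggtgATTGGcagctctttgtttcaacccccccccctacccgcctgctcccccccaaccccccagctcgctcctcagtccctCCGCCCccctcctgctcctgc
Postn: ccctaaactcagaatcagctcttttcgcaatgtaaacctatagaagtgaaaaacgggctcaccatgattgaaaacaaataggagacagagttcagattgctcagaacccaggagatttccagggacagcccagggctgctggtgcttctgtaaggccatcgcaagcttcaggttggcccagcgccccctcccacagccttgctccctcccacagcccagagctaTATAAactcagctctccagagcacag
Tnc: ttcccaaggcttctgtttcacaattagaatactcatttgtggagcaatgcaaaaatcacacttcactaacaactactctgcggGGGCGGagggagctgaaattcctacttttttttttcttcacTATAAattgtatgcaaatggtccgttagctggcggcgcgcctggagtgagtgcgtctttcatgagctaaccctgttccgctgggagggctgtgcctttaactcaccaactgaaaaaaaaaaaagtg

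Both strands were searched for 6 motifs, and the share of 32851 promoter windows of the same length that held each was counted. The core of the TATA box, spelled TATAA, was in 22.8% of windows. The box named after its letters CCAAT was in 33.8%, and the GC box with the letters GGGCGG in 32.7%. The AP-1 element, written TGANTCA, was in 6.75% of windows. The SMAD element was searched as CAGACA and found in 17.1%, and the TEAD element was searched as GGAATG and found in 12.6%. The *Thbs2* window held CCAAT boxes at -186 and -144, a TATA-box core at -125, and SMAD elements at -67 and -44, counted from the start site. *Thbs3* held a CCAAT box at -98 and a GC box at -21, *Postn* a TATA-box core at -26, and *Tnc* a GC box at -167 and a TATA-box core at -126. No motif was present in all 3 printed windows of the members that fell. No matches overlapped in these 4 windows. *Tnc* and *Postn* each have another window in the table. The other *Tnc* start site, 79 bases inside the first, has a TATA-box core at -27 and a SMAD element at -71, besides the same GC box and TATA-box core at -246 and -205. The other *Postn* window, whose start site is 1842 bases from the annotated gene start, held no motif. These matches describe letters in the windows and nothing about binding.

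A gene counted as a DEG when edgeR's quasi-likelihood test gave an adjusted p-value under 0.05 and its level changed 2-fold or more. Of the 8 members tested, 3 were lower in TranspExer, namely *Thbs2*, *Thbs3* and *Postn*, and 0 were higher. Over all tested genes, 5.28% were lower and 3.5% higher by the same rule, 8.78% in all. No member was higher at an unadjusted p-value under 0.05 in edgeR, and DESeq2 called 0 higher and 3 lower. By the adjusted p-value alone, 5 members fell, the additional ones being *Sparc* and *Tgfbi*, and 0 rose, beside 15.5% and 16.6% of all tested genes. The groups did not overlap in those 5 members, as was the case for 52.4% of all tested genes, 25.1% being lower in TranspExer. The median log2 fold change of the 8 tested members was -0.71, and that of all tested genes was -0.02.

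**Figure D1:**
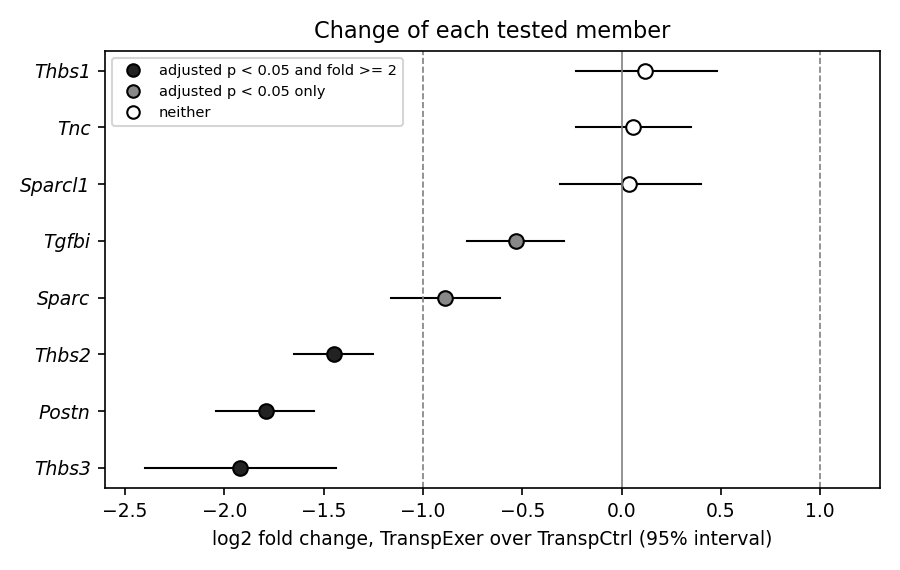
Log2 fold change (TranspExer over TranspCtrl) of the 8 tested members from edgeR, ordered by size, with points at the estimate, bars for the 95% confidence interval and dashed lines at a 2-fold change. Points are black where both thresholds were passed, grey for the adjusted p-value alone and open for neither. *Thbs3*, *Postn* and *Thbs2* lie beyond the 2-fold decrease, *Sparc* and *Tgfbi* lie between it and 0, and the intervals of *Thbs1*, *Sparcl1* and *Tnc* include 0.

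In the thrombospondin family, 2 of 3 tested genes were DEGs, both lower, and the family's median log2 fold change was -1.45. *Thbs1* (ENSMUSG00000040152, chr2:118111876-118127133, plus strand) encodes the thrombospondin known for activating latent TGF-β and for binding CD36 and CD47. It had 4522, 6644 and 6188 CPM in TranspCtrl replicates 1 to 3, and 5833, 6159 and 6901 CPM in TranspExer. All samples were high, and the groups overlapped. The means were 5785 ± 1117 and 6298 ± 547 CPM (SD, n = 3), and the log2 fold change was 0.12 with a 95% interval from -0.23 to 0.48 (edgeR adjusted p = 0.565). The lowest of the 6 values belonged to TranspCtrl replicate 1, and without this sample the log2 fold change was -0.03.

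*Thbs2* (ENSMUSG00000023885, chr17:14665500-14694235, minus strand) encodes the closest relative of thrombospondin 1, a trimeric protein that binds matrix metalloproteinases and restrains vessel growth. Its levels were 1722, 1889 and 1784 CPM in TranspCtrl and 634, 671 and 669 CPM in TranspExer. Every TranspExer sample lay below every TranspCtrl sample, with little spread inside either group. The mean went from 1798 ± 84.5 to 658 ± 20.7 CPM (SD, n = 3), a 2.73-fold decrease (log2 fold change -1.45, SE 0.08, edgeR adjusted p = 4.66e-05). Of this pair, *Thbs2* passed the test and *Thbs1* did not, and the difference between their changes was not tested. Counts of *Thbs2* were 38.1%, 28.4% and 28.8% of those of *Thbs1* in TranspCtrl, and 10.9%, 10.9% and 9.7% in TranspExer. This ratio does not depend on how libraries are scaled, and its groups did not overlap. It was chosen after the data were seen and restates the changes of the 2 genes, so it is not a separate result.

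*Thbs3* (ENSMUSG00000028047, chr3:89215180-89226837, plus strand) encodes a pentameric thrombospondin present in cartilage and bone. It was a low-abundance transcript, with 326, 201 and 240 counts in TranspCtrl and 63, 65 and 57 counts in TranspExer, or 15.9, 10.3 and 11.2 CPM against 3.3, 3.78 and 2.83 CPM. The highest sample was TranspCtrl replicate 1, and the groups were separate. The means of 12.5 ± 3.02 and 3.3 ± 0.473 CPM (SD, n = 3) gave a 3.78-fold decrease (log2 fold change -1.92, SE 0.21, edgeR adjusted p = 0.000492), which was -1.71 without TranspCtrl replicate 1. The gene overlaps *Mtx1* on the opposite strand, which had 266 to 558 counts per sample and a log2 fold change of -0.41 (edgeR adjusted p = 0.179). The strand setting of the counting is not given in the sources used here, so how reads in the shared stretch were assigned was not tested.

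*Thbs4* (ENSMUSG00000021702, chr13:92751590-92794818, minus strand), known from tendon and muscle, had 1 count in TranspCtrl replicate 2, 2 counts in TranspExer replicate 2 and 0 in the other samples. All of these are under the floor of 3 counts, so no difference was detectable at this depth.

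**Figure D2:**
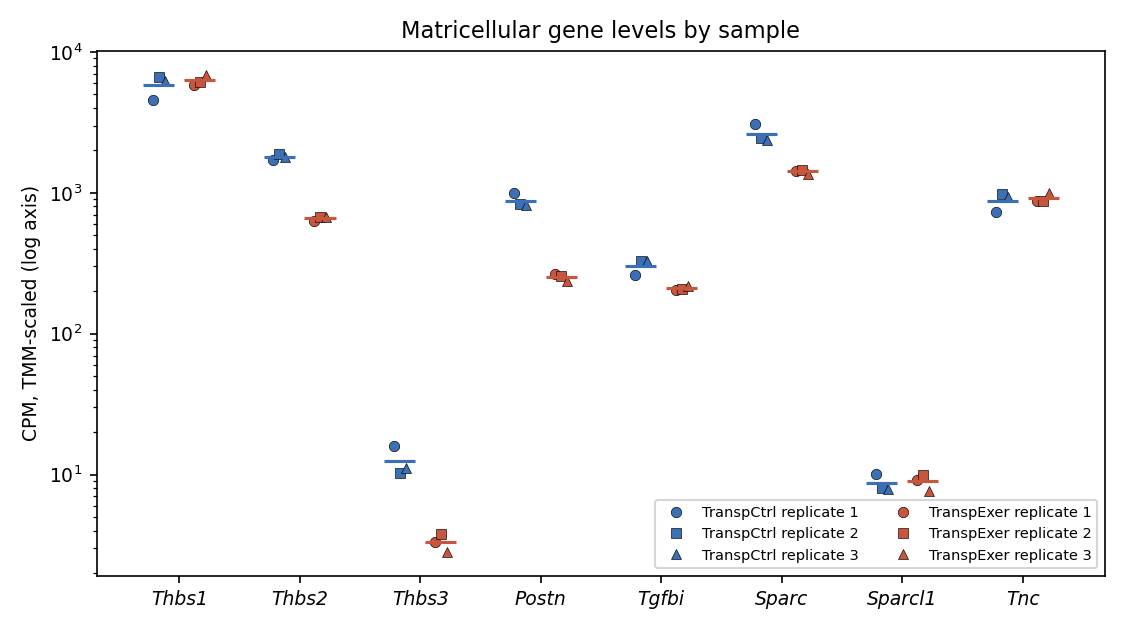
TMM-scaled CPM of the 8 tested members in each of the 6 samples on a log axis, with points for samples (blue TranspCtrl, red TranspExer, circle, square and triangle for replicates 1, 2 and 3) and lines for group means. *Thbs2*, *Thbs3*, *Postn*, *Sparc* and *Tgfbi* show TranspExer samples below all TranspCtrl samples, while the groups overlap in *Thbs1*, *Sparcl1* and *Tnc*.

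*Postn* (ENSMUSG00000027750, chr3:54361109-54391037, plus strand) encodes periostin, a protein of the periosteum and of collagen-rich tissue that is secreted by osteoblast precursors and fibroblasts. Its levels were 995, 832 and 816 CPM in TranspCtrl and 266, 258 and 238 CPM in TranspExer. The lowest TranspCtrl sample was far above the highest TranspExer sample. The means of 881 ± 99.2 and 254 ± 14.6 CPM (SD, n = 3) corresponded to a 3.47-fold decrease (log2 fold change -1.79, SE 0.11, edgeR adjusted p = 4.66e-05). The summed level of 6 osteoblast markers was also lower, at 171 to 227 CPM in TranspCtrl and 110 to 115 CPM in TranspExer. Of 4 tested markers, 2 were lower as DEGs and 3 by the adjusted p-value alone. *Runx2* did not pass the test (log2 fold change -0.12, edgeR adjusted p = 0.663). The untested *Dmp1* was higher, with 6, 2 and 7 counts in TranspCtrl and 10, 16 and 13 counts in TranspExer. *Bglap*, the osteocalcin gene and a defining marker of mature osteoblasts, had at most 1 count per sample, under the floor of 3 counts, although near-identical gene copies make its count uncertain. The part of these cells in the *Postn* result was not tested.

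*Tgfbi* (ENSMUSG00000035493, chr13:56609523-56639562, plus strand), which encodes the other fasciclin-domain protein and is induced by TGF-β, had 259, 329 and 326 CPM in TranspCtrl and 204, 208 and 219 CPM in TranspExer. The groups did not overlap, although TranspCtrl replicate 1 was the lowest of its group. The means were 305 ± 39.6 and 210 ± 7.87 CPM (SD, n = 3), a 1.45-fold decrease that passed the adjusted p-value but not the fold threshold (log2 fold change -0.53, SE 0.11, edgeR adjusted p = 0.00831). The fold change of *Tgfbi* was smaller than that of *Postn*, a difference that was not tested. Counts of *Postn* were 385%, 253% and 250% of those of *Tgfbi* in TranspCtrl and 131%, 124% and 109% in TranspExer. The 2 fasciclin genes had a median log2 fold change of -1.16, and 1 of the 2 was a DEG.

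*Sparc* (ENSMUSG00000018593, chr11:55394500-55423183, minus strand) encodes osteonectin, which binds collagen and calcium and is among the abundant noncollagenous proteins of bone. It had 3076, 2435 and 2364 CPM in TranspCtrl, where replicate 1 was the highest, and 1437, 1458 and 1361 CPM in TranspExer. The groups did not overlap. The means of 2625 ± 392 and 1419 ± 51 CPM (SD, n = 3) gave a 1.85-fold decrease that passed the adjusted p-value but not the fold threshold (log2 fold change -0.89, SE 0.12, edgeR adjusted p = 0.00138).

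*Sparcl1* (ENSMUSG00000029309, chr5:104079111-104113733, minus strand), whose product hevin resembles SPARC and is known from vessels and brain, was expressed far lower. Its levels were 10.1, 8.06 and 7.86 CPM in TranspCtrl and 9.15, 10 and 7.65 CPM in TranspExer. These groups overlapped, with a log2 fold change of 0.04 and a 95% interval from -0.31 to 0.4 (edgeR adjusted p = 0.846). Counts of *Sparcl1* were 0.327%, 0.331% and 0.332% of those of *Sparc* in TranspCtrl and 0.637%, 0.685% and 0.562% in TranspExer. The groups did not overlap in this ratio, which was also chosen after the data were seen and restates the changes of its genes. Across the 2 genes, the median log2 fold change was -0.42.

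**Figure D3:**
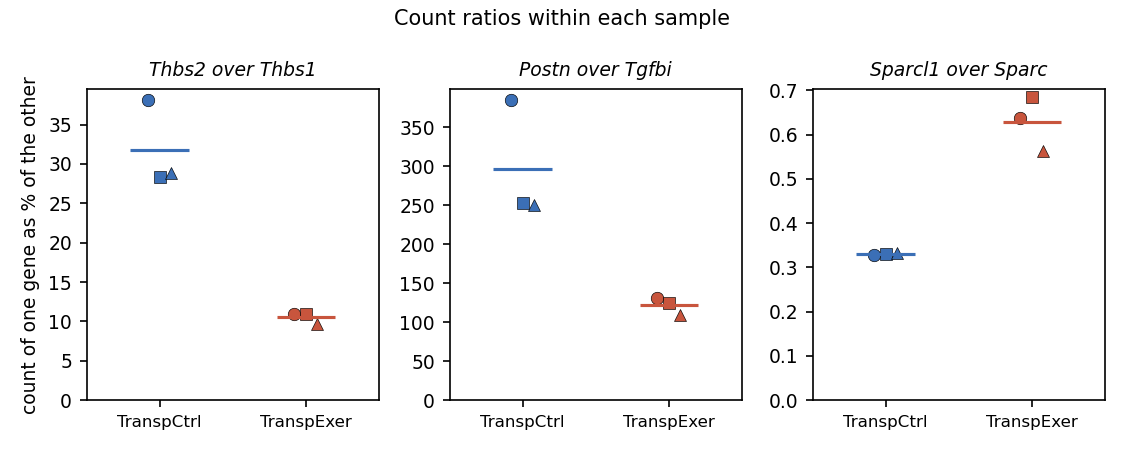
Ratio of counts within each sample, in percent, for *Thbs2* over *Thbs1*, *Postn* over *Tgfbi* and *Sparcl1* over *Sparc* in the 6 samples (blue TranspCtrl, red TranspExer, circle, square and triangle for replicates 1, 2 and 3), with lines for group means. The *Thbs2* and *Postn* ratios are lower in every TranspExer sample than in any TranspCtrl sample, and the *Sparcl1* ratio is higher in every one. The pairs were chosen after the data were seen, and the ratios restate the changes of their genes.

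*Tnc* (ENSMUSG00000028364, chr4:63959785-64047015, minus strand) encodes tenascin C, a hexameric protein of remodelling matrix. It had 727, 987 and 928 CPM in TranspCtrl and 878, 875 and 1001 CPM in TranspExer. The groups overlapped, and the lowest value was TranspCtrl replicate 1. The means were 881 ± 136 and 918 ± 71.8 CPM (SD, n = 3), the log2 fold change was 0.06 with a 95% interval from -0.23 to 0.35 and an edgeR adjusted p of 0.74. *Tnxb* (ENSMUSG00000033327, chr17:34670535-34719815, plus strand), which encodes a tenascin of connective tissue and skin, had 6, 2 and 5 counts in TranspCtrl and 10, 5 and 4 counts in TranspExer. These counts did not pass the filter, and no difference was tested.

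Compared per kilobase of merged exon length, *Thbs1* had the highest level among the members, at 953 ± 184 CPM per kb in TranspCtrl and 1037 ± 90.1 in TranspExer (SD, n = 3). *Sparc* ranked below it with 693 ± 104 and 375 ± 13.5 CPM per kb. In TranspCtrl, *Thbs2* followed at 257 ± 12.1, then *Tnc* at 113 ± 17.6 and *Postn* at 101 ± 11.4, which did not differ beyond their spread, and *Tgfbi* at 80.8 ± 10.5. In TranspExer, *Tnc* at 118 ± 9.23 stood above *Thbs2* at 94 ± 2.95, and *Tgfbi* at 55.8 ± 2.09 above *Postn* at 29.2 ± 1.67. The lowest of the tested members were *Sparcl1* at 2.95 ± 0.414 and 3.04 ± 0.405, and *Thbs3* at 2.58 ± 0.626 and 0.685 ± 0.0981 CPM per kb. The untested *Tnxb* and *Thbs4* ranked below them in both groups. These orders are for merged exon length, and several of them change with the length used. With the longest annotated transcript, *Sparc* had 1141 and *Thbs1* 989 CPM per kb in TranspCtrl, and *Postn* had 169 against 124 for *Tnc*. With the length deposited beside the counts, *Postn* moved by more than 3 times, to 330 ± 37.2 CPM per kb in TranspCtrl, above *Thbs2* at 305 ± 14.3 and *Tnc* at 124 ± 19.2. In TranspExer it then stood at 95.2 ± 5.45, above *Tgfbi* at 77.5 ± 2.9. By that length, *Sparc* reached 2013 ± 301 and *Thbs1* 989 ± 191 CPM per kb in TranspCtrl, and 1088 ± 39.1 and 1077 ± 93.6 in TranspExer. The members together took 1.22% to 1.32% of all counts in TranspCtrl and 0.897% to 1% in TranspExer. *Thbs1* alone made up 39.9% to 50.6% of the member counts in TranspCtrl and 63% to 66.4% in TranspExer.

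Leaving out TranspCtrl replicate 1, which stood apart in the distances above, kept the same 3 members as DEGs, and *Sparc* and *Tgfbi* stayed below an adjusted p-value of 0.05. The log2 fold changes without it were -1.48 for *Thbs2*, -1.71 for *Thbs3*, -1.70 for *Postn*, -0.64 for *Tgfbi* and -0.76 for *Sparc*. Over all 13 alternatives, the DEGs among the members were these 3 genes each time.

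**Figure D4:**
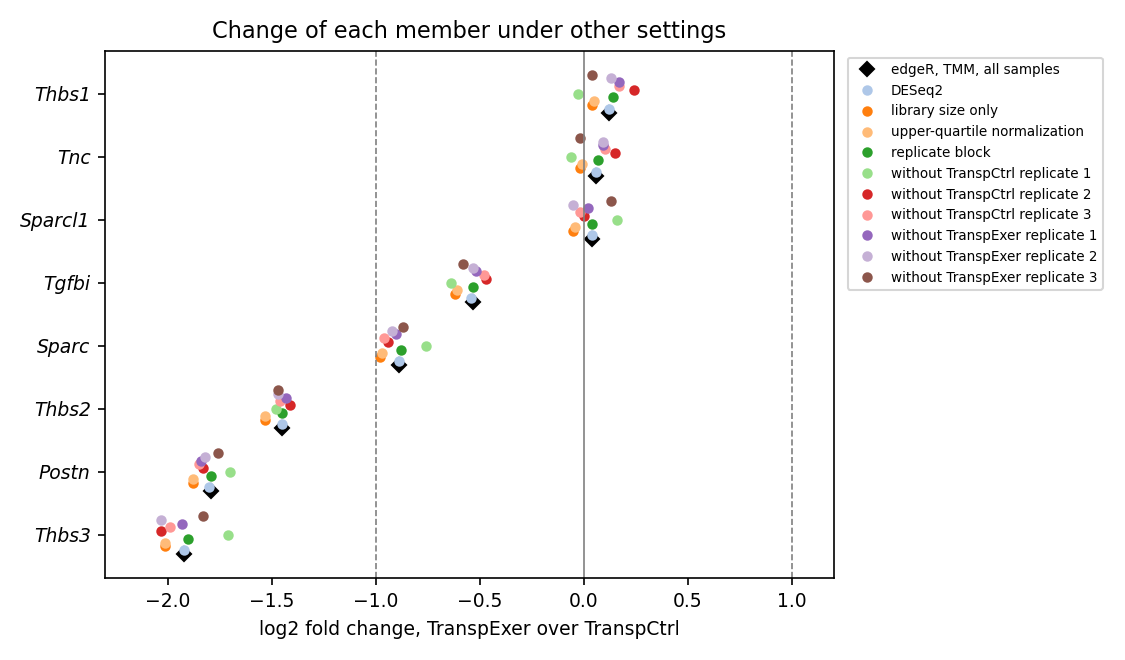
Log2 fold change of each of the 8 tested members under the analysis reported here (black diamonds) and under 10 of the 13 alternatives, each coloured point being 1 setting and dashed lines marking a 2-fold change. The other filters on low counts and the fold tested in the model are not drawn. *Thbs2*, *Thbs3* and *Postn* stay below a 2-fold decrease throughout, while *Thbs1*, *Sparcl1* and *Tnc* cross 0.

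Genes that act with these proteins were grouped into 4 lists. In the list of 16 other matricellular genes, 12 were tested and 1 was higher and 1 lower as a DEG. That is 8.33% each way, against 3.5% higher and 5.28% lower of all tested genes. By the adjusted p-value alone 4 rose and 3 fell. *Tnn*, which encodes tenascin W of bone-forming tissue, fell from 154 ± 16.4 to 56.9 ± 4.8 CPM (SD, n = 3; edgeR adjusted p = 1e-04). *Smoc1*, a SPARC-related gene of basement membranes, rose from 19.7 ± 4.82 to 63.2 ± 1.63 CPM (edgeR adjusted p = 0.000352). Without TranspCtrl replicate 1, this list held 4 DEGs, *Fstl1* (log2 fold change -1.01, edgeR adjusted p = 1.32e-08) and *Spock2* (-1.72, edgeR adjusted p = 0.0133) being added. These 2 genes were named after their values were seen.

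Of 23 receptors and binding partners on cells, 4 were higher and 0 lower as DEGs, with 17.4% higher against 3.5% of all tested genes, and by the adjusted p-value alone 12 rose and 2 fell. At an unadjusted p-value under 0.05, 15 were higher and 3 lower in edgeR, and DESeq2 called 4 and 0. *Cd36*, the scavenger receptor that binds thrombospondins, rose from 364 ± 9.5 to 1498 ± 53.2 CPM (SD, n = 3; log2 fold change 2.04, edgeR adjusted p = 1.45e-05). The integrin subunit genes *Itga2b* (log2 fold change 1.52), *Itgb3* (1.09) and *Itga3* (1.05) also rose. *Itga2b* is a platelet marker too, and the 10 megakaryocyte and platelet markers rose in sum from 275–331 CPM in TranspCtrl to 523–555 CPM in TranspExer, with 7 of 10 higher as DEGs. Endothelial cells are among those that express *Cd36*, and 8 of 10 endothelial markers were higher as DEGs and 10 by the adjusted p-value alone. Their summed levels were 214 to 255 CPM in TranspCtrl and 694 to 751 CPM in TranspExer. The part of these cells, or of macrophages and adipocytes, in the receptor results was not tested. Without TranspCtrl replicate 1, *Itga3* had a log2 fold change of 0.96 and no longer met the fold threshold.

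In the list of 20 genes of TGF-β, its latency and its receptors, 2 were higher and 0 lower as DEGs. That is 10% higher, against 3.5% of all tested genes. By the adjusted p-value alone 6 rose and 1 fell, beside 16.6% and 15.5% of all tested genes. At an unadjusted p-value under 0.05, 8 were higher and 1 lower in edgeR, and DESeq2 called 2 and 0. *Eng*, an endothelial co-receptor, rose from 51.8 ± 11.8 to 167 ± 7.09 CPM (SD, n = 3; log2 fold change 1.69, edgeR adjusted p = 0.000285). The summed endothelial markers had a log2 ratio of 1.61, and the part of endothelial cells in this result was not tested. *Tgfb1*, the ligand that thrombospondin 1 can release from latency, rose from 224 ± 87.3 to 567 ± 19.7 CPM (edgeR adjusted p = 0.00836), and TranspCtrl replicate 1 had 124 CPM against 276 and 273 CPM in the other TranspCtrl samples.

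Of 19 collagens, matrix partners and proteases, 2 were higher and 5 lower as DEGs. That is 10.5% and 26.3%, against 3.5% and 5.28% of all tested genes. By the adjusted p-value alone 2 rose and 12 fell (median log2 fold change -0.61). The 2 higher DEGs were the collagen genes *Col4a1* (log2 fold change 1.19, edgeR adjusted p = 0.000211) and *Col4a2* (1.15, edgeR adjusted p = 0.000391). The lower genes included *Mmp9*, which encodes a gelatinase (303 ± 63.7 to 56.6 ± 2.95 CPM, edgeR adjusted p = 6.5e-05), and *Dcn*, a small proteoglycan gene (13.8 ± 0.773 to 4.06 ± 0.192 CPM, adjusted p = 6.69e-05). The fibrillar collagen genes *Col3a1* (3044 ± 193 to 1253 ± 34.7 CPM, edgeR adjusted p = 8.1e-05) and *Col5a2* (1962 ± 108 to 857 ± 18.1 CPM, edgeR adjusted p = 8.52e-05) fell as well. *Col1a1*, another fibrillar collagen gene, did not pass the test (log2 fold change -0.16, edgeR adjusted p = 0.674). Without TranspCtrl replicate 1, *Col12a1* reached a log2 fold change of -1 and was called too, with an edgeR adjusted p of 8.59e-08, and this gene was also named after its value was seen.

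**Figure D5:**
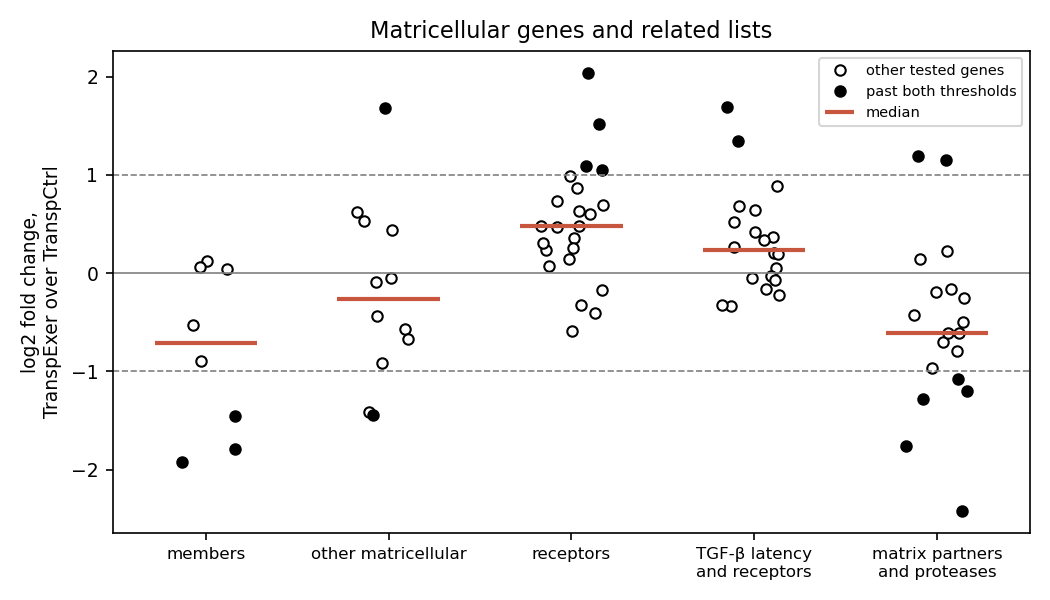
Log2 fold change of the tested genes of the members and the 4 lists of related genes, each point being 1 gene, filled where it was a DEG, the red bar the list's median and dashed lines a 2-fold change. The medians are -0.71 for the members, -0.27 for other matricellular genes, 0.48 for receptors, 0.24 for TGF-β genes and -0.61 for matrix partners.

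Other marker lists moved between the groups as well. Summed levels of 8 B and plasma cell markers were 1549 to 1962 CPM in TranspCtrl and 364 to 403 CPM in TranspExer. As DEGs 7 of 8 were lower, and by the adjusted p-value alone 8. Neutrophil markers had sums of 3169 to 4250 and 5475 to 5695 CPM, pericyte and smooth muscle markers 2492 to 2934 and 1826 to 2037 CPM, and adipocyte markers 53.7 to 107 and 114 to 134 CPM. Nearly all of the adipocyte sum was 1 gene, *Fabp4*, at 72.9 ± 29.3 CPM in TranspCtrl and 123 ± 10.1 CPM in TranspExer. As DEGs, 2 of 8 neutrophil and 1 of 3 tested adipocyte markers were higher, and 0 of 10 macrophage markers were higher or lower, although 3 were higher and 1 lower by the adjusted p-value or an unadjusted p-value under 0.05 (edgeR), with DESeq2 calling 0. Of the pericyte and smooth muscle markers 4 of 7 were higher and 0 lower as DEGs, against the direction of their sum, and 2 were lower by the adjusted p-value. Of the stromal markers, 3 of 10 were lower and 0 higher as DEGs, the lower being *Nt5e* (log2 fold change -1.08), *Ly6a* (-1.07) and *Pdgfra* (-1). By the adjusted p-value alone 6 were lower and 2 higher, the latter being *Vcam1* (log2 fold change 0.65, edgeR adjusted p = 0.000726) and *Pdgfrb* (0.39, edgeR adjusted p = 0.0237), which were named after their values were seen. At an unadjusted p-value under 0.05, 2 were higher in edgeR, and DESeq2 called 0 higher. Among all marker lists, only *Lep* was at 0 in every sample. The log2 ratio of the stromal sum was -0.26. A large part of that sum was *Cxcl12*, at 1396 ± 69.3 CPM in TranspCtrl and 1016 ± 15.3 CPM in TranspExer. The median log2 fold change of the 10 stromal markers was -0.46, beside -1.45 for *Thbs2*, -1.92 for *Thbs3* and -1.79 for *Postn*. The part of the cell makeup in the changes of the members was not tested.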

How the data were processed

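The members and gene lists were chosen with earlier results of these data known. The authors deposited expected counts, estimated per gene and not normalized, for 56980 genes in 6 samples, together with a gene length. The genome build was mm10 per the submitters' processing notes, and the aligner, counting tool and strand setting are not given in the sources used here. Gene positions came from GENCODE M21 (GRCm38), in which 52125 of the identifiers were found. Counts were rounded and tested with edgeR 4.0.16 (filterByExpr, TMM, quasi-likelihood test, condition as the only term) in R 4.3.3, with Benjamini-Hochberg adjustment over 15190 genes. CPM were TMM-scaled and are given as mean ± SD. Intervals are 95% confidence intervals. All members were named, and in each list at most the 4 DEGs of smallest adjusted p. *Fstl1*, *Spock2*, *Col12a1*, *Vcam1*, *Pdgfrb* and *Bglap* were named outside this rule, after their values were seen. So were *Pdgfra*, *Nt5e*, *Ly6a*, *Cxcl12*, *Runx2*, *Dmp1*, *Fabp4*, *Col4a1*, *Col4a2* and *Col1a1*. With 3 samples per group an exact permutation test cannot go below p = 0.1. Alternatives were DESeq2 1.42.0, other scalings and filters, the fold tested in the model, the replicate number as a block, and leaving out each sample. The deposited length and the within-sample ratios were chosen after the data were seen. The test was run on simulated data in which 200 of 15190 genes changed by a log2 fold of 1.5. edgeR recovered 89% of them, and 2.73% of its calls were unchanged genes. The simulated spread was estimated from these samples, so this cannot tell whether the replicates are technical.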

Additional observations from a re-analysis of the deposited data

How the results depend on the processing

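The DEGs among the members were *Thbs2*, *Thbs3* and *Postn* under all 13 alternatives. Testing the fold change of 2 within the model left 274 lower and 138 higher genes in all, 2 DEGs among the receptors, 1 among the TGF-β genes and 2 among the matrix partners, and gave *Sparc* and *Tgfbi* an adjusted p of 1, since both lie under that fold. Leaving out samples in turn, the other matricellular genes held 2 to 4 DEGs. The direction of members that did not pass the test was not stable. *Sparcl1* had a log2 fold change of -0.04 with upper-quartile scaling and -0.05 by library size only, and *Tnc* -0.01 and -0.02. With samples left out, *Thbs1* ranged from -0.03 to 0.24, *Sparcl1* from -0.05 to 0.16 and *Tnc* from -0.06 to 0.15. The called members ranged from -1.48 to -1.41 for *Thbs2*, -2.03 to -1.71 for *Thbs3* and -1.85 to -1.7 for *Postn*. The median of all genes was -0.105 by library size only and -0.097 with upper-quartile scaling, against -0.018.

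Samples with the same replicate number had deviations correlated at 0.025, -0.002 and 0.042, so the numbers were not taken to pair samples. With the replicate number as a block, *Thbs2* had a log2 fold change of -1.45, *Thbs3* -1.9, *Postn* -1.79, *Tgfbi* -0.53, *Sparc* -0.88, *Thbs1* 0.14, *Sparcl1* 0.04 and *Tnc* 0.07, and 767 genes were lower and 519 higher over all tested genes. Depth limits *Thbs4* and *Tnxb*, which had at most 2 and 10 counts per sample.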
